A study of Mus musculus and Bos taurus with 2 samples.

Results

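The ubiquitin-specific proteases (USPs) are the largest family of deubiquitinases, enzymes that cut ubiquitin from other proteins. The genes described here are all those whose symbol is USP, a number and at most 1 letter, leaving out the Usp17 genes, with at least 1 sense transcript model. A sense model is a full match to a reference transcript of the gene or any other model that shares its exons on its strand. By this rule 40 of 14090 named genes with a sense model were USP genes in the mouse library and 42 of 13375 in the bovine library. They made 47 different symbols, with 116 models in mouse and 151 in bovine.

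The study read full-length cDNA of mouse and bovine embryos at the stage when the embryo's own genome becomes active, on a nanopore sequencer, to find transcript forms of that stage. The mouse library came from late 2-cell embryos at 36 h after insemination, made in vitro from oocytes of superovulated Slc:ICR mice and grown in KSOM. The bovine library came from embryos between the 8-cell and 16-cell stages at 72 h, made from in vitro matured oocytes of Japanese Black cows or their F1 cross with Holstein and sperm of a Japanese Black bull. Each library pooled about 200 embryos, took polyadenylated RNA through 14 PCR cycles and ran on its own flow cell, and both are labelled batch 1. With 1 library per species, no test between groups was possible, and species, stage and annotation cannot be told apart. The libraries held 42028 mouse and 40819 bovine models in all. Their read depth is unknown because the models carry no read count, so a gene with no model may have been read too rarely to be assembled.

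Each library was checked against markers. Models were found for 5 of 6 oocyte genes in mouse and 6 of 6 in bovine, and for 5 of 5 genes of genome activation in either species. Cumulus and granulosa markers gave models for 5 of 10 genes in mouse and 7 of 10 in bovine, sperm markers for 2 of 6 in mouse and 3 of 6 in bovine, and blood markers for 1 of 4 in mouse and 2 of 4 in bovine. Models carry no level, so how much of any USP transcript came from such cells was not tested. With no library of an earlier stage, transcripts stored by the oocyte cannot be told apart from those newly made.

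USPs share a catalytic domain in which a cysteine, found in an N-terminal Cys box, and a histidine, found in a C-terminal His box, cut the bond behind ubiquitin. By taking ubiquitin off a protein they can save it from the proteasome, and by taking it off histones they change chromatin. In early embryos, when maternal proteins are degraded and chromatin is remodelled, both kinds of target are present.

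The Cys box is the part of the coding sequence that the members share, and a model that skips it cannot encode the catalytic cysteine. The stretches below are 6 codons on either side of the catalytic position, read from GENCODE M21 transcripts on mm10, with that codon in capitals. They are shown for the members with most models in both species, for the longest members, for members with little of the coding sequence assembled, and for the splicing factor Usp39.
Usp16: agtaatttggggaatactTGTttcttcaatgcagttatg
Usp33: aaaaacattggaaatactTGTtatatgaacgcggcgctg
Usp36: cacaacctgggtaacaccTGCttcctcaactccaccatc
Usp37: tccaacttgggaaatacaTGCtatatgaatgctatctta
Usp48: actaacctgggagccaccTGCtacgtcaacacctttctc
Usp7: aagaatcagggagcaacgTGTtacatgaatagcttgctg
Usp9x: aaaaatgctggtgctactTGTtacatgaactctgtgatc
Usp34: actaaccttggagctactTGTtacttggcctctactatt
Usp32: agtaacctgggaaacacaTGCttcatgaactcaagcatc
Usp49: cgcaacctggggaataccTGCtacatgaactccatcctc
Usp39: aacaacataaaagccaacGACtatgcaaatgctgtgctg
In the stretches shown, the capitals are a cysteine codon in every gene except Usp39, where they are an aspartate codon. Each of the 11 lies within 1 coding exon, for example Usp37 at chr1:74471644-74471682 on the minus strand, Usp48 at chr4:137605770-137605808 on the plus strand and Usp9x at chrX:13145201-13145239 on the plus strand.

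Most of the family had a model at the stage of genome activation. In mouse, 40 of the 50 USP symbols of the RefSeq gene table did (80.0%, exact 95% interval 66.3% to 90.0%), beside 53.5% of all 21900 protein-coding symbols of that table. Of 52 family symbols listed for both species, 42 had one in bovine (80.8%, 67.5% to 90.4%) and 40 in mouse (76.9%, 63.2% to 87.5%). The list holds USP6 and USP41, which the mouse RefSeq table lacks. With no bovine annotation used, there is no share over all bovine genes to set beside the bovine value. Intervals here and below are Clopper-Pearson, treat symbols or models as independent, and cover counting error only. Between the libraries, 35 symbols were shared, which is 87.5% of the mouse members and 83.3% of the bovine members. For all named genes, 60.1% of mouse symbols and 63.3% of bovine symbols had a model in the other library. Mouse alone had models of USP9Y, USP24, USP27X, USP29 and USP50. Bovine alone had models of USP13, USP25, USP26, USP31, USP35, USP40 and USP44. No sense model in either library carried USP6, USP18, USP41, USP43 or USP51, of which USP18 removes the ubiquitin-like protein ISG15 and USP51 acts on histone H2A. The names come from 2 annotations. All 7 symbols with models in bovine alone are in the mouse RefSeq table, as are USP18, USP43 and USP51. In bovine, USP24 and USP29 name models outside the sense classes, and whether USP9Y, USP27X and USP50 are annotated there was not tested.

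On average, members had more models per gene than other named genes. Mouse members averaged 2.90 ± 2.36 models (SD over 40 genes, range 1 to 14) and other named mouse genes 2.22 ± 1.91. Bovine members averaged 3.60 ± 2.51 (SD over 42 genes, range 1 to 13) and other named bovine genes 2.48 ± 2.00. At least 2 models were assembled for 30 of 40 mouse members, 75.0% beside 51.2% of all named genes, and for 35 of 42 bovine members, 83.3% beside 57.9%. USP genes are also long genes with many exons: the model with most exons averaged 18.5 exons in mouse members and 8.27 in other mouse genes, and 18.4 exons in bovine members and 8.33 in other bovine genes. Among genes with a model of at least 10 exons, a comparison added after these values were seen, 33 mouse members averaged 2.97 models and 4543 other mouse genes 2.96. In bovine the same restriction left 34 members with 3.97 ± 2.58 models and 4321 other genes with 3.32 ± 2.45.

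**Figure D1:**
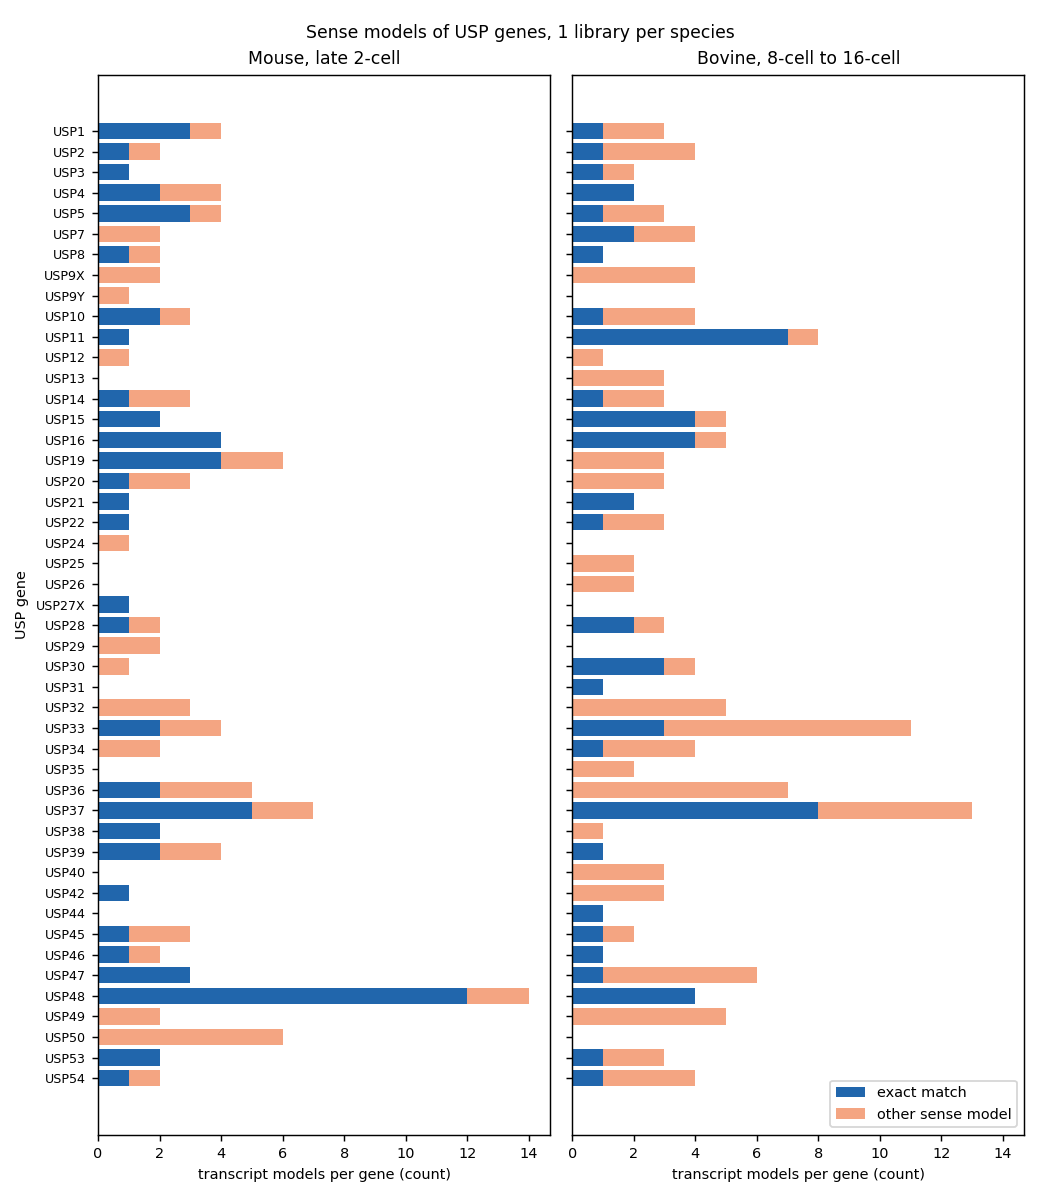
Sense transcript models per USP gene (count, horizontal axis) in the mouse library on the left and the bovine library on the right. Blue bars are exact matches and orange bars all other sense models. USP48 has the longest bar in mouse with 14 models, and USP37 in bovine with 13.

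An exact match is a model with the intron chain of a reference transcript. Exact matches were 64 of 116 mouse USP models (55.2%, 45.7% to 64.4%), beside 55.4% of the models of other named genes. They were 58 of 151 bovine USP models (38.4%, 30.6% to 46.7%), beside 44.0% for other genes. By gene, 29 of 40 mouse members had an exact match, 72.5% beside a background of 72.5%, and 28 of 42 bovine members did, 66.7% beside 65.5%. These shares were near those of all genes. Exact matches in both libraries were found for 23 symbols.

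**Figure D2:**
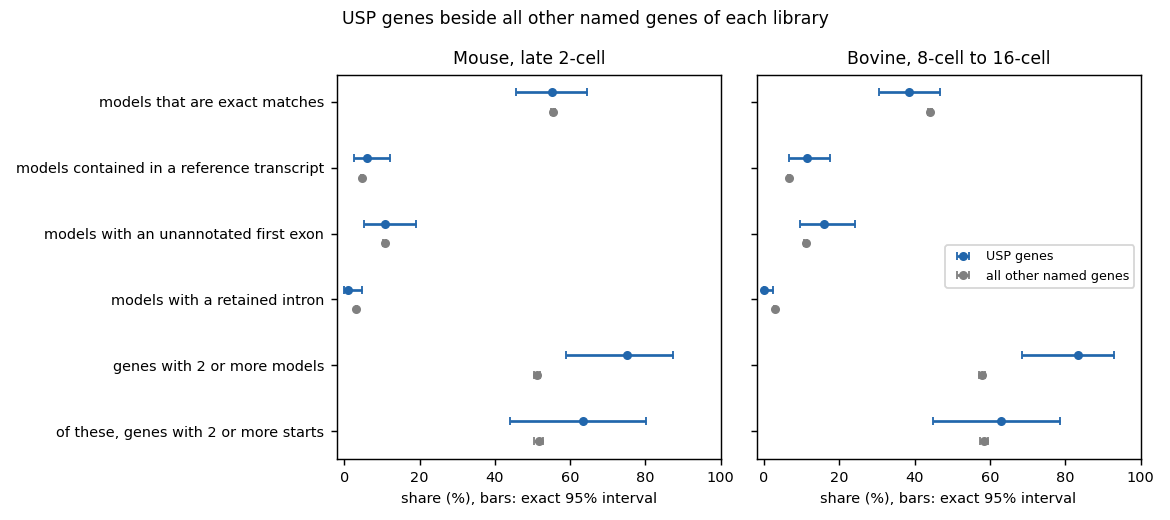
Shares of models or genes (%, horizontal axis) for USP genes (blue) and all other named genes (grey) in mouse on the left and bovine on the right, with exact 95% intervals. Blue and grey points lie close for exact matches, and the blue points lie to the right for genes with 2 or more models. Unannotated first exons are judged here in both species against the library's exact matches.

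Whether the mouse models hold the catalytic domain was read from the annotated coding sequence on the same build. In mouse, the Cys box was covered by 95 of 116 USP models (81.9%, 73.7% to 88.4%), the start codon by 82 and the last codon by 93. Both boxes were covered by 79 of the 108 models of genes whose reference protein has a recognisable pair (73.1%, 63.8% to 81.2%). Exact matches nearly all held the pair, 58 of 59 models, and of the other sense models 21 of 49 did (42.9%, 28.8% to 57.8%). Of these 49, 13 models held neither box, 9 the Cys box alone and 6 the His box alone. An exact match has a reference intron chain and the boxes come from reference transcripts, so the high share among exact matches follows largely from their definition. Coverage says nothing of the reading frame, which was not analysed here.

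Counted by gene, 32 of the 37 mouse members with a recognisable box pair had a model that held both boxes. The 5 without were Usp9y, Usp12, Usp32, Usp45 and Usp49. No His box was recognised in the reference protein of Usp39, Usp53 and Usp54. The whole annotated coding sequence lay in 1 model for 27 of 40 members, and no model reached 50% of it for Usp9x, Usp9y, Usp24, Usp32 and Usp49. The 27 genes assembled whole had a median coding length of 2748 nt (1098 to 4764 nt), and the other 13 had 3273 nt (1110 to 10803 nt).

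**Figure D3:**
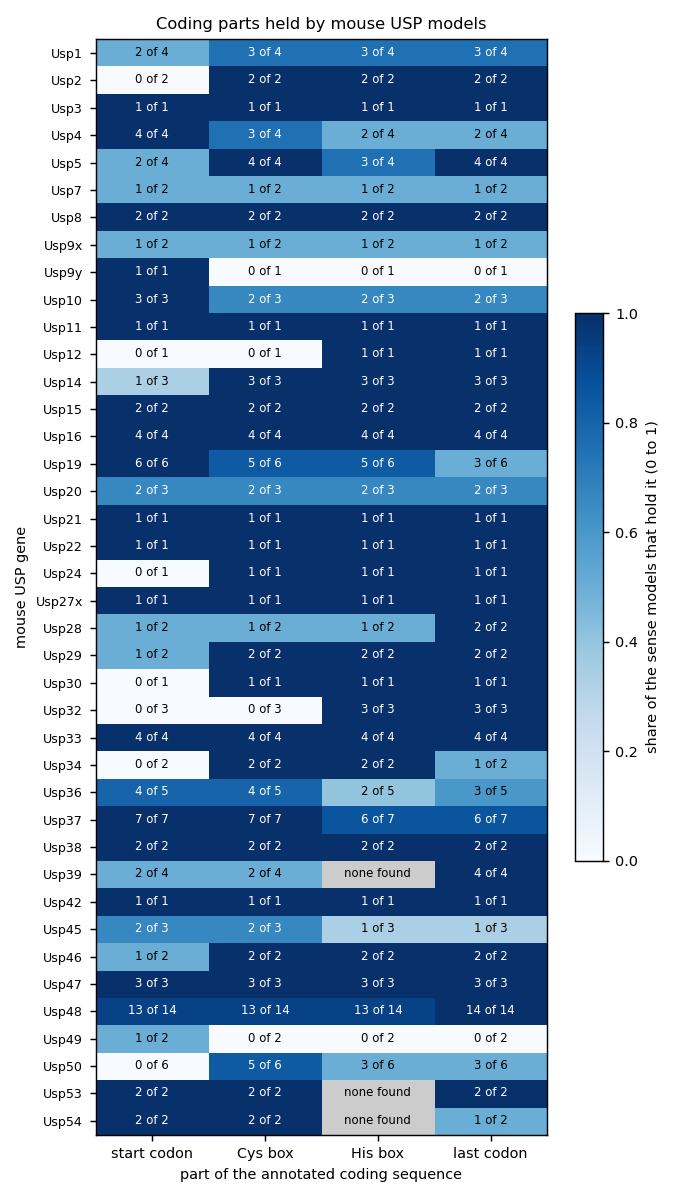
Share of the sense models of each mouse USP gene (rows) that cover the start codon, the Cys box, the His box and the last codon of the annotated coding sequence (columns), with counts in the cells. Darker blue is a larger share and grey marks a box not found in the reference protein. Pale cells at the Cys box mark Usp9y, Usp12, Usp32 and Usp49, none of whose models hold it.

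**Figure D4:**
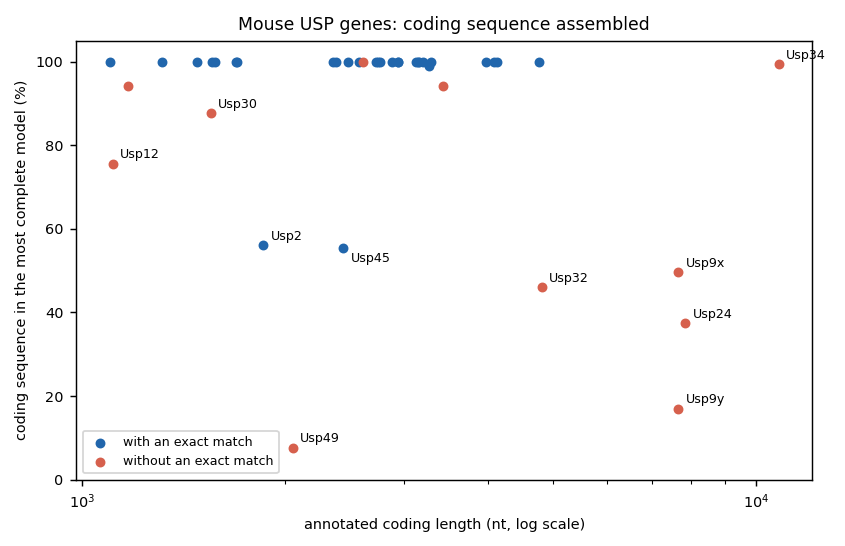
Annotated coding length of each mouse USP gene (nt, log scale, horizontal axis) and the percentage of it in the most complete model (vertical axis). Blue points are genes with an exact match and red points genes without. Of the longest genes, Usp9x, Usp9y and Usp24 lie below 50%, while Usp34 lies at 99.4%.

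Among the enzymes that act on histones and chromatin, 7 of 8 listed genes had models in mouse, 15 in all, and 6 of 8 in bovine, 24 in all. USP16, which removes ubiquitin from histone H2A, had 4 mouse models, all exact, and 5 bovine models, 4 of them exact. All 4 mouse Usp16 models covered both boxes and at least 99.6% of the coding sequence, and they differed mainly at their starts. USP36, a nucleolar enzyme, had 5 mouse models of which 2 were exact, and 7 bovine models of which none was exact. The exact mouse models of Usp36 spanned 21 and 22 exons and the whole coding sequence. A further 2 mouse models of 5 exons each ended early, keeping the Cys box without the His box.

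Usp22, the deubiquitinase of the SAGA coactivator complex, had 1 exact mouse model of 13 exons, against 3 bovine models. Of the bovine USP22 models, 1 was an exact match of 13 exons, and the other 2 began in a first exon of 156 bp downstream of the first exon of the exact match. Usp27x, an intronless relative of Usp22, had 1 exact mouse model of 3240 bp, the only single-exon mouse USP model, against none in bovine. USP3, an enzyme for histones H2A and H2B, had 1 mouse and 2 bovine models, and USP21, another H2A enzyme, had 1 mouse and 2 bovine models. These mouse models of Usp3, Usp21 and Usp22 each held the whole coding sequence.

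USP49, which acts on histone H2B, had no exact match in either species. Its 2 mouse models had 3 and 2 exons, and the better one held 7.59% of a coding sequence for 685 residues. The 5 bovine models had 3 to 5 exons and up to 3180 bp. Neither mouse model reached the Cys box shown above.

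For DNA repair, p53 and the cell cycle, all 9 listed genes had models in either species, 25 in mouse and 46 in bovine. USP37, which stabilises cyclin A, gave 7 mouse models with 5 exact and 13 bovine models with 8 exact, the largest smaller count of any symbol over the 2 libraries. The mouse Usp37 models had 24 to 26 exons except 1 of 16 exons, which kept the Cys box, ended before the His box and held 62.5% of the coding sequence. The exact mouse models reached 7130 to 7290 bp. In bovine the exact models of USP37 had 24 or 25 exons and 7701 to 7879 bp, and of the other 5 models 3 had only 3, 3 and 10 exons. In either species most USP37 models ran the length of the gene.

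Mouse Usp37 models fell into 1 start group, with starts at the RefSeq start or 94 to 98 bp before it. The promoter that holds these starts is shown because every mouse Usp37 model begins in it. It is the minus strand of chr1:74505772-74506071 in RefSeq on GRCm38.p6, from 250 bases before the start to 50 after it, with GC boxes in capitals.
Usp37 promoter: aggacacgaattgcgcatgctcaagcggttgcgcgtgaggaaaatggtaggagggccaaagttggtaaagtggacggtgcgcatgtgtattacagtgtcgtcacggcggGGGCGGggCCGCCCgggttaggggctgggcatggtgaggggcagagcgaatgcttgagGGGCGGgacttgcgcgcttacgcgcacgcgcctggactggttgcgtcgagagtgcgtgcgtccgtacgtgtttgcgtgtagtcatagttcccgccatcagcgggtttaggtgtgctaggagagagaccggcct
The GC box was searched as GGGCGG on both strands, overlaps allowed.

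Promoters of 31 mouse members were in the RefSeq table. The GC box was in 22 of them (71.0%), beside 35.7% of all 32851 promoters of that length, and the ETS motif CCGGAAG in 8 (25.8%), beside 8.86%. The TATAAA box was in 1, that of Usp19 (3.23%), beside 13.6%, and CCAAT was in 8 (25.8%), beside 37.4%. The E-box CACGTG was in 3 (9.68%), beside 7.15%, and the NRF1 motif in 0, beside 0.971%. Member promoters had a median of 28 CpG and 65.0% G and C in 300 bases, beside 7 CpG and 52.7% for all promoters. So the motifs rich in G and C and the base composition moved together, and their separate parts were not tested. Promoters were counted whether or not a model began in them. Usp4, Usp8 and Usp20 each had an exact match that began at the RefSeq start, though ends of exact matches may partly be taken over from the reference. By contrast, the nearest model began 31684 bp downstream for Usp12, 87756 bp for Usp24 and 221085 bp for Usp29. Which of these promoters were in use in the embryos was not tested.

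USP1, which removes ubiquitin from FANCD2 and PCNA, had 4 mouse models with 3 exact and 3 bovine models with 1 exact. Each library also held USP1 models with an upstream start. The mouse one began 715 bp before the outermost exact start in a first exon of 127 bp (chr4:98923444-98923570), had 3 exons and held no coding base. In bovine the upstream start lay 870 bp out and was shared by 2 models of 8 and 9 exons, of which 1 had a first exon of 226 bp that no exact match overlaps.

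USP7, which deubiquitinates MDM2 and p53, had 2 mouse models, neither of them exact, against 4 bovine models with 2 exact. The mouse model with the outer start covered 3 exons and 5.89% of the coding sequence. The other began in a first exon of 177 bp that GENCODE lacks (chr16:8737382-8737558), 784 bp downstream of the RefSeq start used in the promoter table. That model had 31 exons, both boxes and 94.1% of the coding sequence, and lacked the start codon of the reference used. Both exact bovine USP7 models had 31 exons. The other 2, of 31 and 32 exons, began 28158 bp further out in a shared first exon of 297 bp. The first exon in question differed from that of the exact matches, while the downstream exons covered 97.1% of the longest exact match.

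Among the remaining cell cycle genes, USP11, an enzyme of homologous recombination, had 1 exact mouse model, against 8 bovine models with 7 exact. USP47, which acts on DNA polymerase beta, had 3 mouse models, all exact, against 6 bovine models with 1 exact. USP28, known for stabilising MYC, had 2 mouse and 3 bovine models. Its non-exact mouse model was an 8-exon piece with an unannotated first exon of 68 bp (chr9:49032055-49032122) and neither box. USP42, a p53 deubiquitinase, had 1 exact mouse model of 18 exons with the whole coding sequence, against 3 bovine models, none exact.

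USP2, which acts on MDM2 and cyclin D1 and has long and short isoforms, had 2 mouse models of 12 exons, and both held the catalytic boxes and 56.1% of the longest coding sequence but not its start codon. In bovine, 1 exact USP2 model of 12 exons stood beside 3 models of 3 exons each that began 10076 bp upstream and overlapped no base of the exact match. USP45, which acts on the repair nuclease subunit ERCC1, had 3 mouse models, the largest of 55.4% of the coding sequence. Its exact mouse model kept the Cys box and ended before the His box, the 1 exact match in mouse with this pattern. The bovine USP45 models were an exact match of 15 exons and a model of 14 exons that began 10151 bp upstream in a first exon of 130 bp.

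In the group that serves the proteasome and free ubiquitin, 2 of 3 genes had mouse models and 3 of 3 had bovine models. USP5, which takes apart free ubiquitin chains, had 4 mouse models with 3 exact, against 3 bovine models with 1 exact. All 4 mouse Usp5 models covered the Cys box and 3 the His box. Its paralogue USP13 had no mouse model and 3 bovine models, none exact, with up to 21 exons.

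USP14, bound to the proteasome, had the same layout in both species: 1 exact match of 16 exons and 2 models from a start further out. The mouse outer start lay 14973 bp upstream of the exact match, and both models that used it rejoined the second exon of the exact match, 1 of them with 2 further exons before it. That start was 3 bp outside a start annotated for Usp14 in GENCODE, so it was not counted as unannotated. The mouse outer models covered both boxes and 98.9% of the coding sequence but not the start codon. In bovine the outer start lay 4586 bp upstream, in a first exon of 184 bp outside every exact match. Of the bovine outer models, 1 had 16 exons and covered 85.5% of the exact match, and the other stopped after 4 exons.

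**Figure D5:**
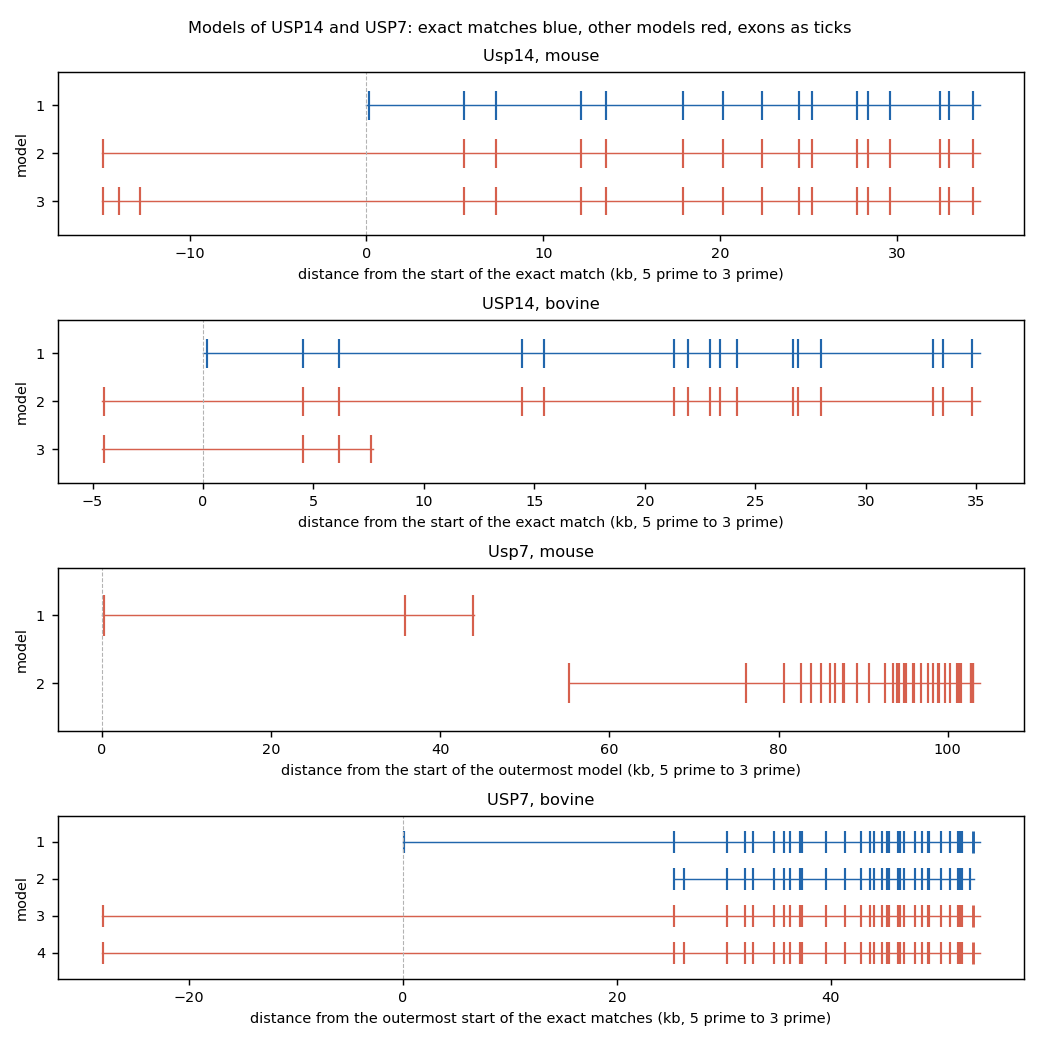
Models of USP14 and USP7 in mouse and in bovine, drawn to scale with exons as vertical ticks and introns as lines, by distance (kb) from the start of the exact match or outermost model. Blue models are exact matches and red models are other sense models. Red models of USP14 begin to the left of the blue one in both species, by 14973 bp in mouse and 4586 bp in bovine, and red models of bovine USP7 begin 28158 bp to the left.

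All 4 genes tied to splicing and RNA had models, 13 in mouse and 12 in bovine. USP4 and USP15, which act on spliceosome proteins with the help of SART3, had 4 and 2 mouse models, against 2 and 5 bovine models. The exact mouse models of Usp4 had 22 and 21 exons, and a 17-exon model kept the Cys box alone. USP10, which binds the stress granule protein G3BP1, had 3 mouse models, 2 of them exact with at least 99.9% of the coding sequence, against 4 bovine models with 1 exact. All 3 non-exact bovine USP10 models began 116 bp outside the exact start.

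Usp39, a splicing factor of the tri-snRNP without the catalytic cysteine, had 4 mouse models in 3 start groups, against 1 exact bovine model of 13 exons. Its 2 exact mouse models also had 13 exons. The other 2 mouse models of Usp39 were shorter, with 5 and 8 exons, and covered the annotated last codon. The 5-exon one began in an unannotated first exon of 394 bp (chr6:72326624-72327017). The aspartate codon shown above was covered by the exact models alone.

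The paralogues USP12 and USP46, both activated by WDR48, had 1 and 2 mouse models, against 1 and 1 bovine models. Mouse Usp12 had no exact match, and its 7-exon model began past the Cys box and held 75.6% of the coding sequence. Mouse Usp46 had an exact match of 9 exons and a second 9-exon model from 9038 bp upstream, with an unannotated first exon of 220 bp (chr5:74077230-74077449), both boxes and 96.7% of the coding sequence. In bovine, USP46 had 1 exact match of 9 exons and USP12 1 contained model of 6 exons. The activators themselves were present, with 1 mouse and 2 bovine models of WDR48 and 3 mouse and 6 bovine models of WDR20.

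Among enzymes of membranes and organelles, 7 of 8 listed genes had models in either species, 21 in mouse and 31 in bovine. USP33, an enzyme of receptor recycling, had 4 mouse models with 2 exact, against 11 bovine models with 3 exact. Every mouse Usp33 model held both boxes and at least 99.1% of the coding sequence in 24 or 25 exons. The bovine models shared 1 start group and ranged from 2 to 26 exons. Its relative USP20 had 3 mouse models with 1 exact, against 3 bovine models, none exact.

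USP9X, which trims ubiquitin from many adhesion and signalling proteins, was assembled in separate pieces in both species. In mouse a model of 22 exons held the start codon and 40.5% of the coding sequence, and a model of 20 exons held both boxes and the last codon with 49.6%. In bovine 3 models of 15, 16 and 21 exons began at the outer end, and 1 model of 23 exons and 8196 bp lay downstream of them. None of these 6 models was an exact match, and no model joined the ends of the gene.

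USP19, anchored in the endoplasmic reticulum, had 6 mouse models with 4 exact, against 3 bovine models that were 2 contained pieces and 1 single-exon overlap. The exact mouse Usp19 models all had 27 exons and both boxes but differed at the last codon, which 2 of the 4 held. USP8, which works with the ESCRT machinery of endosomes, had 2 mouse models, against 1 exact bovine model of 19 exons. The non-exact Usp8 model, with 18 exons, retained an intron and was the only USP model of this class in either library. That is 0.862% of mouse USP models, beside 3.19% for other genes, and 0 of 151 bovine USP models, which allows up to 2.41%, beside 2.81%. By gene this was 1 of 40 mouse members, beside 5.80% of all named genes, and 0 of 42 bovine members, beside 5.52%.

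USP30, which opposes mitophagy on the mitochondrial surface, had 1 contained mouse model of 11 exons with 87.6% of the coding sequence, against 4 bovine models with 3 exact. USP32, an endosomal enzyme, had 3 mouse and 5 bovine models, and none was exact. All 3 mouse Usp32 models began in unannotated first exons inside the gene, with 4, 4 and 13 exons, held the His box without the Cys box and covered at most 46.0% of the coding sequence.

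The 4 genes listed for the germline and sex chromosomes gave few models, 3 in mouse and 3 in bovine. The X-linked genes USP9X, USP11 and USP27X are counted in other groups. Usp29, an imprinted gene of the Peg3 region, had 2 mouse models of 3 exons, against none in bovine. The first of these held the whole coding sequence and the second 89.3%, and both covered both boxes. Mouse Usp9y, the Y-linked relative of Usp9x, had 1 model of 11 exons that held the start codon and 17.0% of the coding sequence, against none in bovine. USP26, X-linked and known from testis, had 0 mouse models, against 2 bovine models of 5 and 6 exons that contained a reference transcript. USP44, which helps the spindle checkpoint hold back anaphase, had 0 mouse sense models, against 1 exact bovine model of 6 exons.

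Of the genes long thought inactive, Usp50 stood apart in mouse with 6 models, none exact, against none in bovine. All 6 mouse Usp50 models began at least 2518 bp downstream of the nearest annotated start, and none held the start codon. The Cys box was in 5 of them, the His box in 3 and both in 2, of 94.2% and 91.9% of the coding sequence. A pair of Usp50 models had unannotated first exons, of 197 bp (chr2:126776903-126777099) and 188 bp (chr2:126780733-126780920). Of the 6 Usp50 models, 3 ended 1299 bp from the end of the Usp8 models, which lie on the opposite strand. USP53 had 2 exact mouse models, against 3 bovine models with 1 exact, and USP54 had 2 mouse models with 1 exact, against 4 bovine models with 1 exact.

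Usp48, an enzyme that acts on histone H2A at the sites of BRCA1, had the most mouse models, 14, of which 12 were exact, against 4 bovine models, all exact. RefSeq lists 20 Usp48 transcripts in mouse. The 12 exact mouse models had 27 or 28 exons, both boxes and 96.7% to 100% of the coding sequence, and they shared 1 start group. A further mouse model of 9 exons began in an unannotated first exon of 131 bp (chr4:137635972-137636102) and held neither box. The bovine models had 26 or 27 exons. In this gene the many forms were variants of a nearly complete transcript rather than pieces.

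USP34, which acts in Wnt signalling and encodes 3601 residues in mouse, was the longest member and was assembled nearly whole in both species. Its longest mouse model had 79 exons, 11292 bp and 99.4% of the coding sequence, against an exact bovine match of 80 exons and 11447 bp. A second bovine model of 81 exons and 11799 bp began 688 bp upstream. Usp24, of 2618 residues, was by contrast represented in mouse by 1 contained model of 27 exons with 37.4% of the coding sequence, against none in bovine.

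Of the remaining members, USP25 was listed with USP18 and USP41 for immunity and ISG15, and the others had no listed role. USP38 had 2 exact mouse models, against 1 contained bovine model. USP31 had 0 mouse models, against 1 exact bovine model of 16 exons and 7464 bp. USP35 had 0 mouse and 2 bovine models, USP40 had 0 mouse and 3 bovine models, and USP25 had 0 mouse and 2 bovine models, none of them exact.

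Alternative starts were common. Of members with at least 2 models, 19 of 30 in mouse had 2 or more start groups (63.3% beside 51.7% of all such genes), and 22 of 35 in bovine did (62.9% beside 58.5%). In 12 symbols this held in both libraries: USP1, USP2, USP7, USP9X, USP14, USP20, USP32, USP34, USP36, USP45, USP48 and USP49. A start group can also be a piece that begins inside the gene, as in the contained mouse Usp9x models and the 9-exon Usp48 model. How many start groups are alternative promoters was not tested. In mouse, 78 of 116 USP models began within 100 bp of a GENCODE start of the gene (67.2%, 57.9% to 75.7%), beside 69.7% of the models of other named genes found in GENCODE. For exact matches this was 55 of 64 (85.9%), beside 90.8%, and for the other sense models 23 of 52 (44.2%), beside 42.4%.

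An unannotated first exon is one that overlaps no exon on its strand in GENCODE or in an exact match of the library, and in bovine, where no annotation was used, in an exact match alone. In mouse, 12 of 115 multi-exon USP models had one (10.4%, 5.51% to 17.5%), beside 14.9% of other genes' models. By gene this was 9 of 39, 23.1% beside 22.0%. In bovine, 17 of 107 models had one (15.9%, 9.54% to 24.2%), beside 11.1%, and by gene 9 of 28, 32.1% beside 17.9%. Judged the bovine way, 8 of 28 mouse members had one, 28.6% beside 16.8%, but by model this was 10 of 92, 10.9% beside 10.7%. Members have more models per gene than other genes, and the shares by gene were not matched for this.

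The mouse genes were Usp1, Usp7, Usp28, Usp32, Usp39, Usp46, Usp48, Usp49 and Usp50. The bovine genes, judged against exact matches alone, were USP1, USP2, USP7, USP14, USP22, USP34, USP37, USP45 and USP54. The USP54 first exon, of 35 bp, directly abuts the first exon of the exact match. With no annotated exon allowed within 100 bp, 15 of 107 bovine models (14.0%) and 11 of 115 mouse models (9.57%) had one. USP1 and USP7 were on both lists, which rest on these different rules. Whether the bovine first exons are in the bovine reference was not tested. Of the 12 mouse models, those of Usp7 and Usp46 held both boxes. The 3 Usp32 models and 1 of the Usp50 models held the His box alone, the other Usp50 model held the Cys box alone, and those of Usp1, Usp28, Usp48 and Usp49 held neither. The Usp39 model lacked the Cys box, and its gene has no recognised His box. Whether these first exons lie in transposable elements was not analysed here.

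Splice junctions of mouse members were mostly annotated. Of 787 distinct junctions in USP models, 38 were in neither GENCODE nor an exact match (4.83%, 3.44% to 6.57%), beside 9.81% in other named genes (9.64% to 9.98%). Junctions of 1 gene are not independent of each other, so these intervals are too narrow. Members also have more exons per gene, 18.5 beside 8.27 in the model with most exons. The shares were not matched for exon number, and whether members have fewer such junctions per gene was not tested.

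Partners and other deubiquitinase families were counted from lists. Of 13 listed USP partner names, 12 had models in either species, among them GMPS for USP7, SART3 for USP4 and USP15, and ATXN7L3 and ENY2 for USP22 and USP27X. The missing name, UAF1, is an alias of WDR48. All 4 UCH-type genes had models in either species, 12 of 16 OTU-type genes in mouse and 15 of 16 in bovine. MJD-type genes gave 3 of 4 in either species, JAMM-type genes 11 of 12 and the MINDY and ZUP1 group 4 of 5. For comparison, 53.5% of all mouse protein-coding symbols of the RefSeq table had a sense model, and no such share was available for bovine. Whether every listed name is annotated in both species was not tested.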

How the data were processed

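The authors deposited 1 set of transcript models per library as exon positions, per the file headers, with gene name, class code and start group but no abundance. Builds are mm10 and bosTau9, per the submitters' processing notes. Which aligner, assembler settings and versions were used is not given in the sources used here. Models are assembled, so counts of models are not levels, ends of exact matches may partly be taken over from the reference, and truncated cDNA moves starts downstream.

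Members and lists were chosen with earlier results of these data known. Sense models had class codes =, c, k, m, n, j or o. Members named in depth were those with most models, an unannotated first exon, no exact match or models in 1 library only. Mouse models were compared with GENCODE M21 on the same build. There, 507 of 522 distinct introns (97.1%) of exact USP matches were found. Cys and His boxes were found by motif in the translated coding sequence and carried to the genome. First-exon calls were checked on simulated models. Python 3.11.15, scipy 1.17.1, Biopython 1.88 and matplotlib 3.10.9 were used. No bovine annotation was used, so bovine coding sequence was not analysed here.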

Additional observations from a re-analysis of the deposited data

Results flagged for a closer look

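Models that carry a USP symbol but lie outside the sense classes were found in data the counts above do not use. In mouse there were 17, of which 15 lay inside introns, 1 on the opposite strand over exons and 1 on the opposite strand with matching introns, and 12 had a single exon. Usp32 had 4 of the intronic ones, Usp29 had 3 and Usp34 had 2. Usp44, which had no sense model in mouse, had 1. In bovine there were 14, of which 6 lay inside introns, 4 on the opposite strand over exons and 4 held the reference within an intron. USP24 had 2 intronic models and USP29 had 1 on the opposite strand, and neither had a bovine sense model.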

How the results depend on the processing

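Of 34 alternatives, 28 left counts and means within 1.5 times and shares within their interval, and 6 did not. Exact matches alone gave 2.07 models per bovine member that has one, in place of 3.60. Counting class j models alone, a first exon was unannotated in 25.6% of mouse models (10.4% of all) and 37.0% of bovine models (15.9% of all). With class m alone, 0% of mouse models retained an intron (0.862% otherwise). Exact matches alone left 23 members in both libraries in place of 35. Among models other than exact matches, 42.9% held both boxes in place of 73.1%. By construction, class m alone narrows what counts as a retained intron, and the other settings keep fewer models. Counts depend on unknown read depth and on the assembler's filters, and intervals cover counting error alone. No replicate could be left out. No paired analysis was possible because each species has 1 library.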
